A study of Mus musculus with 25 samples.

Results

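Interferon-stimulated genes were followed across macrophages and fibroblasts sorted from mouse lung and skin, with and without depletion of neutrophils. The set held 39 genes, listed by symbol and found through their Ensembl identifiers, and all 39 were present among the 11867 genes measured in lung and among the 12661 measured in skin. In the 25 libraries, a depleted mouse was a C57BL/6 animal of genotype Mrp8_CRE; Rosa26_DTR, in which the S100a8 (Mrp8) promoter drives Cre recombinase and Cre switches on a diphtheria toxin receptor placed at Rosa26. Control mice were C57BL/6 animals of genotype Mrp8_WT; Rosa26_DTR, which carry the same receptor allele without Cre. Both genotypes received diphtheria toxin into the peritoneum at 10 ug/kg for 7 days, so the controls were toxin-treated too. The promoter is active in neutrophils and their precursors, and can act in other myeloid cells.

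Lung interstitial macrophages came from 3 depleted and 3 control libraries, and PDGFRA+ lung fibroblasts likewise. Skin macrophages came from 4 depleted and 3 control libraries, and CD90.1+ PDGFRA+ skin fibroblasts from 3 and 3. Replicate numbers were given, but nothing states that replicates were separate animals, so each p-value measures the spread between these libraries. Lung libraries were shallow, with 124075 to 385925 estimated reads each, while skin libraries held 6553115 to 27259903. One read was therefore worth 2.997 to 6.81 signal units in lung and 0.0371 to 0.162 in skin, where signal is the normalised value that the authors deposited. Macrophage markers made up 1.54 to 3.42% of the signal in lung macrophages and 0.0221 to 0.0707% in lung fibroblasts. Of the skin libraries labelled as control macrophages, replicates 1 and 5 had 0.00568 to 0.00609% macrophage markers and 8.56 to 10.6% fibroblast markers, close to the skin fibroblasts (0.00304 to 0.00782% and 5.43 to 10.7%) and unlike the other 5 skin macrophage libraries (2.12 to 3.06% and 0.0242 to 0.185%). These 2 libraries were kept apart, which left control replicate 3 as the single control for skin macrophages.

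Interferons are secreted by cells that sense viral or bacterial nucleic acids, and act on neighbours through paired surface receptors. Type I interferon activates a complex that contains STAT2 and IRF9 and binds the interferon-stimulated response element (ISRE), whereas the response to interferon gamma acts through the gamma-activated site (GAS). The induced genes encode transcription factors that extend the response, sensors of foreign RNA or DNA, proteins that block viral entry and replication, the ubiquitin-like modifier ISG15 and its enzymes, GTPases that attack vacuoles, and the parts of the immunoproteasome that cut peptides for MHC class I. Many of them also have a basal level in resting macrophages and stromal cells.

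Per kilobase of exon, the most abundant members in all 4 populations were Ifitm2 and Ifitm3, membrane proteins that restrict the entry of enveloped viruses. Ifitm3 averaged 2493 signal units per kilobase in lung macrophages and 2905 in lung fibroblasts. In skin it averaged 424 in macrophages and 1085 in fibroblasts. The third place per kilobase belonged to Ifi27l2a, a mitochondrial protein, in lung macrophages (1169), lung fibroblasts (642) and skin macrophages (210), and to Ly6e in skin fibroblasts (85.2). The low end of the same scale held Stat2 in lung macrophages at 2.14 per kilobase, Parp14 in lung fibroblasts at 0.740 and in skin macrophages at 1.57, and Trim30a in skin fibroblasts. The antiviral GTPase Mx1 had 9 estimated reads over the 6 lung macrophage libraries and 2 over the 6 lung fibroblast libraries.

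**Figure D1:**
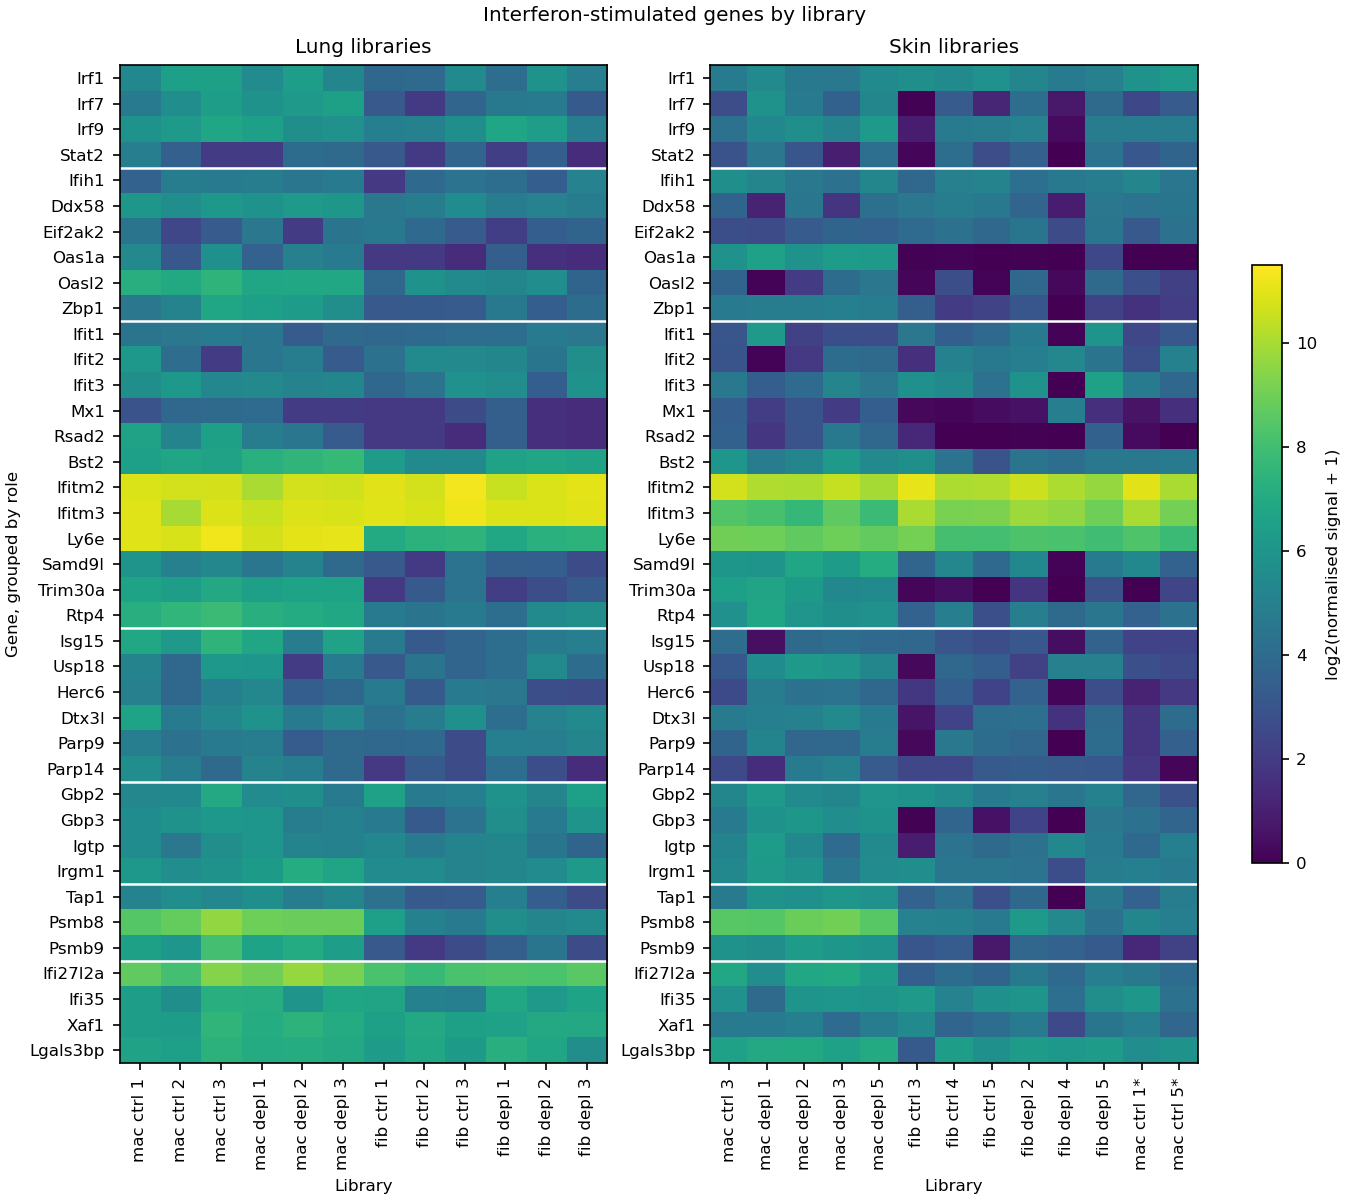
Colour shows log2(normalised signal + 1) of the 39 genes (rows, grouped by role) in every lung and skin library (columns: macrophages or fibroblasts, control or depleted, with the replicate number). Asterisks mark skin control macrophages 1 and 5, kept apart, whose Oas1a and Trim30a are dark as in the skin fibroblasts, and the bright rows are Ifitm2, Ifitm3 and, in lung macrophages, Ly6e.

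The widest differences among these genes lay between the cell types. In lung, 19 of the 39 members were higher in macrophages than in fibroblasts and 0 were lower, in a model with genotype as covariate over 6 and 6 libraries (limma, Benjamini-Hochberg adjusted p below 0.05 over all genes). Over all genes tested, 18.5% were higher in macrophages and 18% lower, 36.5% in all. The median log2 fold change was 0.80 over the 39 members and -0.09 over all genes, and 35 members had a positive value. In skin, 13 of 39 were higher in macrophages and 1, Ifitm3, was lower, against 14.3% higher and 16% lower of all genes, over 5 and 6 libraries. The 13 include Oas1a, Rsad2 and Trim30a. These entered the test through the macrophage libraries, since too few fibroblast libraries reached the filter on low values. In lung that filter removed no gene, and the 19 include Oas1a and Rsad2, with 1 estimated read each over the 6 fibroblast libraries. The skin median was 1.17 over the members and -0.13 over all genes. The members' median was 0.75 without depleted fibroblasts 4, 0.60 without the 3 libraries with over 10% of genes at 0 reads, and 0.64 with the 10 times larger pseudocount. The lists of higher genes shared 11 members, Ifi27l2a, Ly6e, Oas1a, Psmb8, Psmb9, Rsad2, Rtp4, Samd9l, Tap1, Trim30a and Zbp1, which were 57.9% of the lung list and 84.6% of the skin list. A further 17 members were called in neither organ. The overlap of the lung and skin lists over all genes was not computed, so these overlaps cannot be read as particular to the members. The shares of all genes given here also apply to the counts by role below. In bulk RNA, fewer expressing cells and less RNA per cell cannot be told apart.

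**Figure D2:**
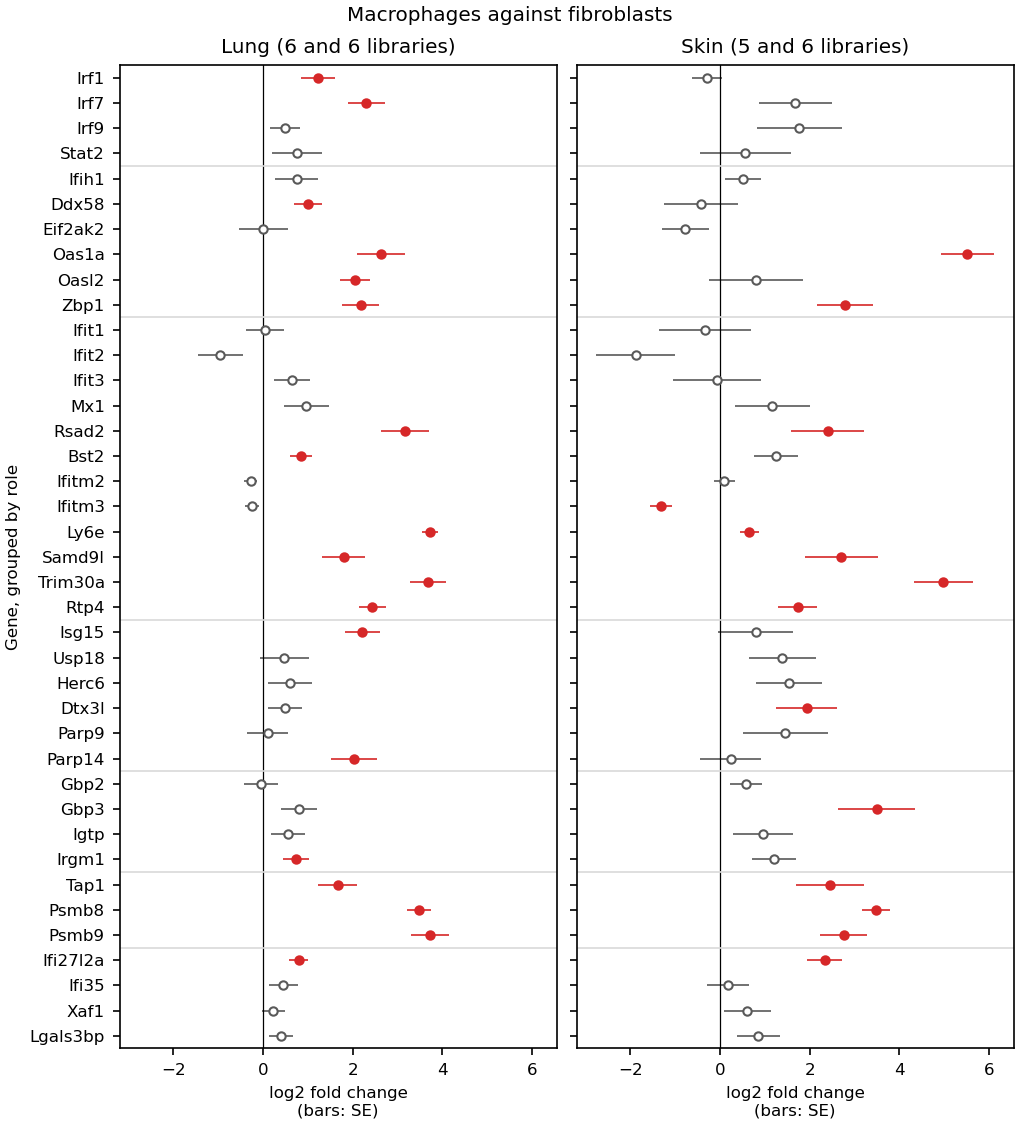
Points give the log2 fold change of macrophages over fibroblasts for each of the 39 genes, with bars of 1 standard error, in lung and in skin; filled red points passed an adjusted p of 0.05. Red points lie to the right of 0 in both organs, for 19 genes in lung and 13 in skin, except Ifitm3 in skin at -1.31.

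In the main fits, antigen processing was the one role whose members were all higher in macrophages of both organs. Psmb8, Psmb9 and Tap1 lie side by side in the MHC region of chromosome 17 (GRCm38). Psmb8 is a catalytic subunit of the immunoproteasome, at chr17:34197721-34201454 on the plus strand. In lung, Psmb8 signal was 355, 435 and 799 in control macrophages and 501, 462 and 474 in depleted macrophages. Fibroblasts had 90.1, 31.8 and 26.7 in controls and 51.1, 36.9 and 43.2 with depletion. The lowest macrophage library was thus well above the highest fibroblast library, and the log2 fold change was 3.47 ± 0.26 (SE; limma adjusted p = 6.19e-13). In skin, macrophages had 367 in control 3 and 358, 488, 527 and 368 with depletion, while fibroblasts had 32.8, 32.4 and 26.2 in controls and 71.8, 41.0 and 19.4 with depletion. Again no libraries overlapped, and the skin difference was 3.47 ± 0.31 (limma adjusted p = 8.77e-07). The kept-apart libraries 1 and 5 had 37.6 and 30.6, within the fibroblast range.

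Psmb9, the partner subunit of the immunoproteasome, was higher in macrophages by 3.72 ± 0.41 in lung and 2.76 ± 0.52 in skin on the log2 scale (limma adjusted p = 4.86e-09 and 9.33e-04). Tap1, a chain of the transporter that carries cut peptides into the endoplasmic reticulum, was higher by 1.67 in lung and by 2.46 ± 0.76 in skin (limma adjusted p = 0.0238). Leaving out depleted skin macrophages 3 ended the skin call of Tap1 (limma adjusted p = 0.0528). The call was also lost with no pseudocount, with voom, with a replicate block and with libraries 1 and 5 as labelled. Over the 11 fits that left out 1 library, the skin value of Tap1 lay between 1.46 and 3.05. The ends of Tap1 and Psmb9 overlap on opposite strands, and whether reads were counted by strand is not given in the sources used here, so reads in the overlap cannot be told apart.

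Among the 12 antiviral effectors, 6 were higher in lung macrophages, and in skin 5 were higher and 1 lower. Ly6e, a lipid-anchored surface protein that restricts coronaviruses among others (chr15:74955051-74959905, plus strand), had the lowest p of the lung comparison. Its lung signal was 1947, 1762 and 2447 in control macrophages and 1732, 2101 and 2152 in depleted macrophages. Lung fibroblasts had 129, 165 and 180 in controls and 117, 157 and 171 with depletion, without any overlap. The log2 difference was 3.72 ± 0.17 (limma adjusted p = 1.24e-18), a ratio of means of 13.2. In skin the values of Ly6e overlapped: macrophages had 515 in control 3 and 494, 409, 499 and 428 with depletion, and fibroblasts had 539, 274 and 265 in controls and 311, 295 and 251 with depletion. The skin difference of 0.65 ± 0.21 passed (limma adjusted p = 0.0284), but not without depleted fibroblasts 5, depleted macrophages 1 or 3, or control macrophages 3, and over all 11 such fits the values lay within 0.59 to 0.75 and the adjusted p reached 0.0813. Whether the lung and skin differences of Ly6e differ was not tested, because the tables were normalised separately.

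Trim30a, a TRIM protein that restrains signalling from Toll-like receptors (chr7:104409025-104465193, minus strand), was close to absent from fibroblasts. Lung macrophages had 102, 82.4 and 122 in controls and 89.2, 102 and 101 with depletion. Lung fibroblasts had 0 reads, 8.67 and 19.5 in controls and 0 reads, 5.83 and 8.63 with depletion. In skin, control macrophages 3 had 89.2 and the depleted ones 104, 76.7, 40.2 and 43.2, whereas no fibroblast library exceeded 6.11 and 2 of 6 had 0 reads. Trim30a was higher in macrophages by 3.68 ± 0.40 in lung (limma adjusted p = 3.20e-09), on the log2(signal + pseudocount) scale, which understates changes of low genes. In skin Trim30a entered the test through the macrophage libraries, and its difference of 4.98 ± 0.65 depends on the pseudocount.

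Ifitm3, by contrast, was lower in skin macrophages than in skin fibroblasts. It was 329 in control macrophages 3 and 282, 199, 404 and 225 in depleted macrophages, against 1055, 574 and 598 in control fibroblasts and 890.1, 793 and 501 in depleted fibroblasts. Every fibroblast library exceeded every macrophage library, and the log2 difference was -1.31 ± 0.25 (limma adjusted p = 0.00111). The kept-apart libraries 1 and 5 had 1038 and 539, inside the fibroblast range. In lung the cell types overlapped for Ifitm3: macrophages had 1974, 1019.9 and 1917 in controls and 1501, 1922 and 1809 with depletion, and fibroblasts had 1988, 1792 and 2337 in controls and 1829, 1861 and 2008 with depletion. The lung value of -0.25 did not pass, although after quantile normalisation it was -0.82 and passed. Its neighbour Ifitm2 did not pass in either organ. Lung Ifitm2 was 1853, 1656 and 1717 in control macrophages, 1061, 1703 and 1636 in depleted ones, 2017, 1698 and 2506 in control fibroblasts, and 1496, 1833 and 2062 in depleted fibroblasts. In skin it was 1667 in control macrophages 3, 1112, 1073, 1441 and 983 in depleted macrophages, 2169.8, 1089.8 and 1126 in control fibroblasts, and 1593, 1084 and 811 in depleted fibroblasts. The cell types overlapped throughout for Ifitm2. Its lung value of -0.27 became a call after quantile normalisation (-0.88) and with voom (-0.30). Reads of these near-identical paralogs may be divided between them by the authors' counting, as may those of the Ifit, Gbp and Oas families, so single members of these families are uncertain.

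The IFIT genes, whose proteins bind viral RNA lacking the host cap, did not follow the antigen processing genes. Ifit2 was 70.1, 16.5 and 0 reads in control lung macrophages and 21.5, 27.9 and 8.83 in depleted ones, against 19.1, 43.2 and 41.0 in control and 37.4, 21.4 and 50.1 in depleted lung fibroblasts. Its lung difference of -0.95 did not pass, but without control macrophages 1, the highest library, it was -1.40 and passed. In skin Ifit2 was 7.00 in control macrophages 3 and 0 reads, 2.72, 15.9 and 14.7 in depleted macrophages, against 2.07, 32.5 and 24.2 in control and 28.9, 38.5 and 20.4 in depleted fibroblasts. The single low fibroblast library was control 3, and the skin difference of -1.88 did not pass. Ifit1 and Ifit3 had lung values of 0.04 and 0.65, neither of which passed.

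In skin, 3 libraries had more than 10% of all genes at 0 reads, namely depleted macrophages 1 (22.2%), depleted fibroblasts 4 (11.9%) and control fibroblasts 3 (10.5%). Depleted fibroblasts 4 also had 9 of the 39 members at 0 reads, Ifit3 and Tap1 among them, while its Mx1 signal of 29.6 was the highest of any skin library. Without these 3 libraries, a choice made after seeing the data, 5 members were lower in skin macrophages: Ifitm3 (-1.16), Ifit1 (-1.97), Ifit2 (-1.53), Ifit3 (-1.14) and the kinase Eif2ak2 (-1.07). In that fit 39.4% of all genes were called in either direction, against 30.3% with the 3 libraries. Leaving out depleted fibroblasts 4 alone added Ifit3 to the lower calls, and leaving out control fibroblasts 3 alone added Ifit2.

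Other antiviral effectors called in both organs were Rtp4, a chaperone-like protein that restricts flaviviruses, Samd9l, a restriction factor for poxviruses, and Rsad2 (viperin), an enzyme that makes a chain-terminating nucleotide. Rtp4 was higher in macrophages by 2.44 ± 0.30 in lung and by 1.74 ± 0.43 in skin (limma adjusted p = 4.48e-08 and 0.0071). Samd9l was higher by 1.80 in lung and by 2.70 ± 0.81 in skin (limma adjusted p = 0.0212 in skin). The skin call of Samd9l held in all 11 fits that left out 1 library, with values between 1.57 and 3.25. It was lost with no pseudocount, with depleted libraries only and with libraries 1 and 5 as labelled. Rsad2 had 54.79 estimated reads over the lung macrophages and 1 over the lung fibroblasts. The ratio was 59.9, with an exact 95% interval of 10.4 to 2418 that covers counting error only, and the fitted log2 difference was 3.17 ± 0.54 (limma adjusted p = 1.35e-05). The skin call of Rsad2 (2.40 ± 0.81), which entered the test through macrophages, was lost in 8 of the 11 fits that left out 1 library; it held without control fibroblasts 3, depleted fibroblasts 5 or depleted macrophages 1, and the 11 values lay between 2.08 and 3.22. Bst2 (tetherin), which holds budding virions on the cell, was higher in lung macrophages by 0.84.

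**Figure D3:**
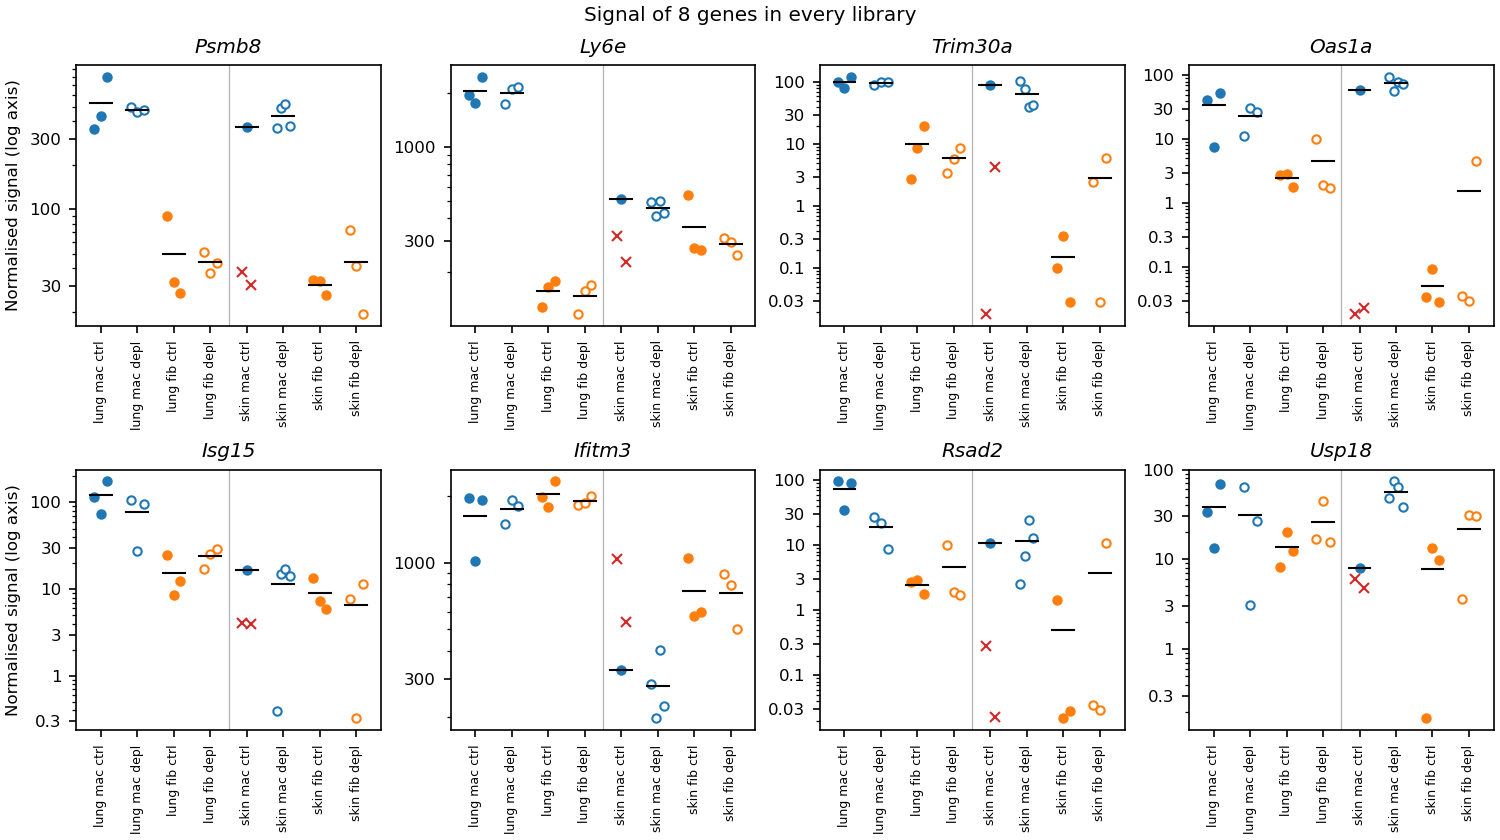
Each panel gives the normalised signal of 1 gene (log axis) in every library, with macrophages in blue, fibroblasts in orange, control libraries filled, depleted libraries open, skin control macrophages 1 and 5 as red crosses, and lines at group means that leave out the crosses. Psmb8, Trim30a and Oas1a separate the cell types in skin and the crosses lie with the fibroblasts, whereas Ifitm3 is lower in skin macrophages and Rsad2 in depleted lung macrophages lies below its controls.

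Of the 6 nucleic acid sensors, 4 were higher in lung macrophages (Oas1a, Oasl2, Zbp1 and Ddx58) and 2 in skin macrophages (Oas1a and Zbp1). Oas1a makes the oligoadenylate that activates RNase L, and lies at chr5:120896256-120907521 on the minus strand. Lung Oas1a was 41.2, 7.61 and 53.6 in control macrophages and 11.3, 30.8 and 26.9 in depleted ones. In lung fibroblasts 5 of 6 libraries had 0 reads and depleted replicate 1 had 10.2, which was a single read. The ratio of macrophages over fibroblasts was 31.8 (exact 95% interval 5.26 to 1295, counting error only). In skin Oas1a was 58.5 in control macrophages 3 and 93.8, 56.3, 78.9 and 72.8 in depleted macrophages, while 4 of 6 fibroblast libraries had 0 reads and the highest, depleted replicate 5, had 4.54. Oas1a entered the skin test through the macrophage libraries, and its log2 difference there, 5.51 ± 0.59, depends on the pseudocount. Libraries 1 and 5, kept apart, both had 0 reads.

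Zbp1, a sensor of left-handed nucleic acids that triggers necroptosis, was higher by 2.18 ± 0.40 in lung and 2.79 ± 0.63 in skin macrophages (limma adjusted p = 4.85e-05 and 0.00367). Oasl2 was higher in lung macrophages by 2.06 ± 0.34 (limma adjusted p = 7.71e-06). Ddx58, which encodes the RNA sensor RIG-I, was 67.2, 48.2 and 68.3 in control lung macrophages and 57.3, 71.2 and 67.2 in depleted ones. Lung fibroblasts had less Ddx58 in every library, at 23.6, 27.3 and 47.6 in controls and 28.4, 33.3 and 28.0 with depletion, and the difference of 1.01 passed. In skin Ddx58 was uneven within groups: 12.2 in control macrophages 3, 1.17, 22.1, 2.41 and 18.1 in depleted macrophages, 22.6, 28.5 and 24.4 in control fibroblasts, and 12.6, 0.899 and 22.7 in depleted fibroblasts. Eif2ak2, the RNA-dependent kinase PKR that halts translation, did not pass in either organ, with a lung log2 value of 0.01. Eif2ak2 was 20.3, 4.49 and 8.91 in control lung macrophages, 22.8, 0 reads and 20.6 in depleted ones, 24.1, 14.4 and 8.91 in control fibroblasts, and 0 reads, 9.72 and 12.1 in depleted fibroblasts. In skin it was 5.85 in control macrophages 3, 5.43, 8.89, 12.1 and 11.3 in depleted macrophages, 15.2, 18.8 and 13.6 in control fibroblasts, and 20.9, 5.45 and 21.6 in depleted fibroblasts, where replicate 4 was the low library.

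Of the 4 transcription factors of the pathway, 2 were higher in lung macrophages and 0 passed in skin, and the difference between organs was not tested. Irf7, the amplifier of type I interferon production, was higher in lung macrophages by 2.31 ± 0.42 (limma adjusted p = 3.57e-05). Irf1, which drives many interferon gamma targets, was 40.5, 88.4 and 92.0 in control lung macrophages and 46.1, 83.8 and 38.3 in depleted ones. Lung fibroblasts had 13.6, 14.4 and 44.6 in controls and 17.0, 56.4 and 29.4 with depletion, overlapping the macrophages, and the difference of 1.23 passed. In skin Irf1 was 24.7 in control macrophages 3 and 42.4, 24.4, 23.3 and 42.7 in depleted macrophages, against 51.9, 45.0 and 54.8 in control and 37.5, 26.5 and 31.1 in depleted fibroblasts.

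In the ISG15 system and the ADP-ribosylation enzymes, 2 of 6 were higher in lung macrophages (Isg15 and Parp14) and 1 of 6 in skin macrophages (Dtx3l). Isg15 was higher in lung macrophages by 2.21 ± 0.39 (limma adjusted p = 2.37e-05), with means of 99.8 ± 48.8 against 19.6 ± 8.11 (SD, n = 6 and 6). Dtx3l, a ubiquitin ligase that works with Parp9, was 101, 26.0 and 38.9 in control lung macrophages, 58.5, 26.2 and 38.5 in depleted ones, 19.2, 28.7 and 52.9 in control fibroblasts, and 17.0, 33.2 and 43.5 in depleted fibroblasts. These lung ranges overlapped, and the difference did not pass. In skin Dtx3l was 24.6 in control macrophages 3 and 29.9, 32.1, 42.6 and 26.4 in depleted macrophages, all above the fibroblasts at 0.591, 3.95 and 16.7 in controls and 17.4, 2.20 and 14.7 with depletion. Its skin call (1.93 ± 0.68, limma adjusted p = 0.0460) was lost in 8 of 11 fits that left out 1 library; it held without depleted fibroblasts 2 or control fibroblasts 3 or 5, and the values lay between 1.45 and 2.25. Dtx3l and Parp9 overlap on opposite strands and their shared reads cannot be told apart; the same holds for Irf7 with Phrf1, Rtp4 with Masp1 and Irf1 with Gm17334, and Irf9 and Igtp overlap Rnf31 and Irgm2 on their own strand.

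Of the 4 interferon-induced GTPases, Irgm1 was called in lung and Gbp3 in skin. Irgm1 regulates the removal of vacuolar pathogens by autophagy. It was 70.1, 49.5 and 56.4 in control lung macrophages, 75.2, 139.6 and 103 in depleted ones, 46.4, 46.4 and 33.8 in control fibroblasts, and 37.5, 46.3 and 74.2 in depleted fibroblasts. The Irgm1 call in lung (0.74, limma adjusted p = 0.0467) was lost in 6 of the 12 fits that left out 1 library, namely control macrophages 1, depleted macrophages 2 or 3, control fibroblasts 3, and depleted fibroblasts 1 or 2, and over all 12 fits the values ranged from 0.61 to 0.83. In skin Irgm1 was 40.2 in control macrophages 3 and 70.3, 58.2, 21.9 and 45.5 in depleted macrophages, against 48.0, 21.6 and 21.5 in control and 20.0, 5.78 and 28.3 in depleted fibroblasts. Gbp3, a guanylate-binding protein, was higher in skin macrophages by 3.49 ± 0.85 (limma adjusted p = 0.00619). Of the other induced genes, Ifi27l2a was higher in macrophages by 0.80 in lung and 2.33 ± 0.38 in skin (limma adjusted p = 3.13e-04 in skin). Lgals3bp, a secreted galectin ligand, did not pass in either organ. Its lung signal was 97.2, 88.4 and 169 in control macrophages, 132, 139.6 and 121 in depleted ones, 79.1, 118 and 76.7 in control fibroblasts, and 153, 111 and 50.1 in depleted fibroblasts. In skin Lgals3bp was 93.6 in control macrophages 3, 121, 127, 94.1 and 131 in depleted macrophages, 8.64, 87.5 and 53.6 in control fibroblasts, and 81.7, 68.2 and 78.8 in depleted fibroblasts. All 5 skin macrophage libraries were above the fibroblasts for Lgals3bp, with control fibroblasts 3 lowest.

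Libraries of the cell types did not overlap for 7 members in lung, all higher in macrophages, against 10.2% of all genes with macrophages above and 9.28% with fibroblasts above. In skin they did not overlap for 12 members with macrophages above (11.1% of all genes) and 1 with fibroblasts above (10.7% of all genes). Within control libraries alone, 16 of 39 members were higher in lung macrophages and 0 lower, where 23.2% of all genes were called. Within depleted libraries 11 were higher and 0 lower, where 23% of all genes were called. In skin, where 1 control macrophage library remained, 2 of the 33 members tested within controls were higher and 0 lower (9.3% of all genes called), and within depleted libraries 10 of 39 were higher and 1 lower (24% of all genes called). With libraries 1 and 5 entered as labelled, the skin comparison had 5 members higher and 0 lower, and 14.7% of all genes were called. Markers of other blood cells moved with cell type: neutrophil markers were 0.150 to 1.61% of signal in lung macrophages and 0.00539 to 0.00915% in lung fibroblasts, and in skin 0.00416 to 0.0202% and 3.45e-05 to 0.00474%. B and plasma cell markers were 0.0215 to 0.192% in lung macrophages and 0.00158 to 0.00462% in lung fibroblasts. Their part in the differences was not tested.

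Sequences upstream of the members show where response elements lie relative to the start of each gene. RefSeq promoter windows of GRCm38.p6, from 250 bases before to 50 after the start, were matched for 31 of the 39 members. The ISRE core was searched as TTTCNNTTTC on both strands, and GAS as TTCNNNGAA, which reads the same on both strands. An ISRE core was found for 17 of 31 members (54.8%), compared with 3.99% of 27025 genes and 3.44% of 32851 windows. GAS was found for 9 of 31 (29.0%), compared with 9.55% of genes and 8.30% of windows. A match describes letters in a window and is not a shown binding site. The stretches below, each 70 bases in the sense of the gene with the ISRE core matches in capitals, are given for members called between the cell types in at least 1 organ and for members called in neither. Isg15 (chr4:156200851-156200920, minus strand), Oas1a (chr5:120907526-120907595, minus), Trim30a (chr7:104465194-104465263, minus), Rsad2 (chr12:26456533-26456602, minus) and Gbp3 (chr3:142559972-142560041, plus) are of the first kind, and Ifit1 (chr19:34640764-34640833, plus), Ifit3 (chr19:34583360-34583429, plus) and Ifitm2 (chr7:140955968-140956037, minus) of the second.
Isg15: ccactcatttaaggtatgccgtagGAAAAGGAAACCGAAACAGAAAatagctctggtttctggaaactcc
Oas1a: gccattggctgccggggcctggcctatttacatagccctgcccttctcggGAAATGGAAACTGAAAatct
Trim30a: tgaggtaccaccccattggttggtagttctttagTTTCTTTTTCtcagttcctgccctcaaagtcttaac
Rsad2: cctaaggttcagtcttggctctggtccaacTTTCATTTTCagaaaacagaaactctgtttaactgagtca
Gbp3: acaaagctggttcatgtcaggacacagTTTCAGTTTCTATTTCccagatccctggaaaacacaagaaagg
Ifit1: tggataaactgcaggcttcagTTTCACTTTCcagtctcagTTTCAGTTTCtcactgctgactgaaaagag
Ifit3: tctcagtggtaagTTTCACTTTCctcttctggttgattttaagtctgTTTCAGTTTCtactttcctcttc
Ifitm2: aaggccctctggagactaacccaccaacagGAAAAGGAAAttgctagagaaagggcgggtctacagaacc
Only members with an upstream match were printed, so both kinds carry the letters by choice, while 14 of the 31 members had no match. Isg15 had 3 overlapping matches over 22 bases, Oas1a and Gbp3 had 2 overlapping matches each, and Ifit1 and Ifit3 had 2 separate ones each. In lung, 7 of the 17 members with an ISRE core were higher in macrophages, with a median log2 fold change of 0.75, and 7 of the 14 without one, with a median of 0.92. In skin the counts were 4 higher and 1 lower of 17 (median 0.58) and 5 higher of 14 (median 1.61).

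Upstream of these genes, none of the 21 interferon ligands was among the genes of either table, and of the 6 receptor genes 5 were. In lung, the type I receptor chain Ifnar1 was higher in macrophages by 0.98 (limma adjusted p = 0.0462) and the interferon gamma receptor chain Ifngr1 was lower by -0.73 (limma adjusted p = 0.00106). Ifnar2 and Ifngr2 had lung values of -0.52 and 0.90 and did not pass. In skin, Ifnar2 (1.51), Ifngr1 (0.87) and Ifngr2 (1.44) were higher in macrophages (limma adjusted p = 0.00544, 0.00621 and 0.0271), and Ifnar1 at 0.21 did not pass. Of 13 kinases, STATs and feedback regulators, 6 were higher and 2 lower in lung macrophages, and 4 were higher and 1 lower in skin. Over all genes tested, 18.5% were higher and 18% lower in lung macrophages, and 14.3% and 16% in skin. These shares also apply to the further genes counted below. The phosphatase Ptpn6, a brake on JAK signalling in blood cells, had the lowest p of the lung lists at 5.83, and Irf5 and the RNA receptors Tlr7 and Tlr8 were among the lowest in skin at 3.63, 6.20 and 5.44. Tlr7 and Tlr8 entered the skin test through the macrophage libraries, and their skin values depend on the pseudocount. Among further interferon-stimulated genes outside the 39, 41 of 65 were higher and 1 lower in lung, and 23 of 64 higher and 2 lower in skin. Within skin fibroblasts alone, 52 of these 64 and 12 of the 13 regulators passed the filter on low values. The rest entered the skin test through the macrophage libraries. The MHC class I gene H2-D1 was higher in macrophages by 2.60 in lung and 2.15 in skin, and the growth regulator Slfn2 by 5.36 and 6.32. In lung fibroblasts the signal of Ptpn6 (1.73 to 5.35) and Slfn2 (1.73 to 9.72) stood for almost no reads. The sizes of those lung differences depend on the pseudocount and on the signal that 1 read was worth.

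Depletion of neutrophils was compared with control in each of the 4 populations. No member passed in any population. In lung macrophages, 59 of 11867 genes were called (0.497%) and 0 of 39 members. At an unadjusted p below 0.05, 4 members passed, 3 higher and 1 lower, while 7.94% of all genes did. The members' median was -0.15, with 14 positive and 25 negative values, and that of all genes was 0.04. Leaving out control library 3 put the members at 0.01, and leaving out depleted library 2 or 3 put them at -0.09. Members' standard errors ran from 0.25 to 0.90 on the log2 scale with a median of 0.47, and a p above the threshold does not show that levels were equal.

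**Figure D4:**
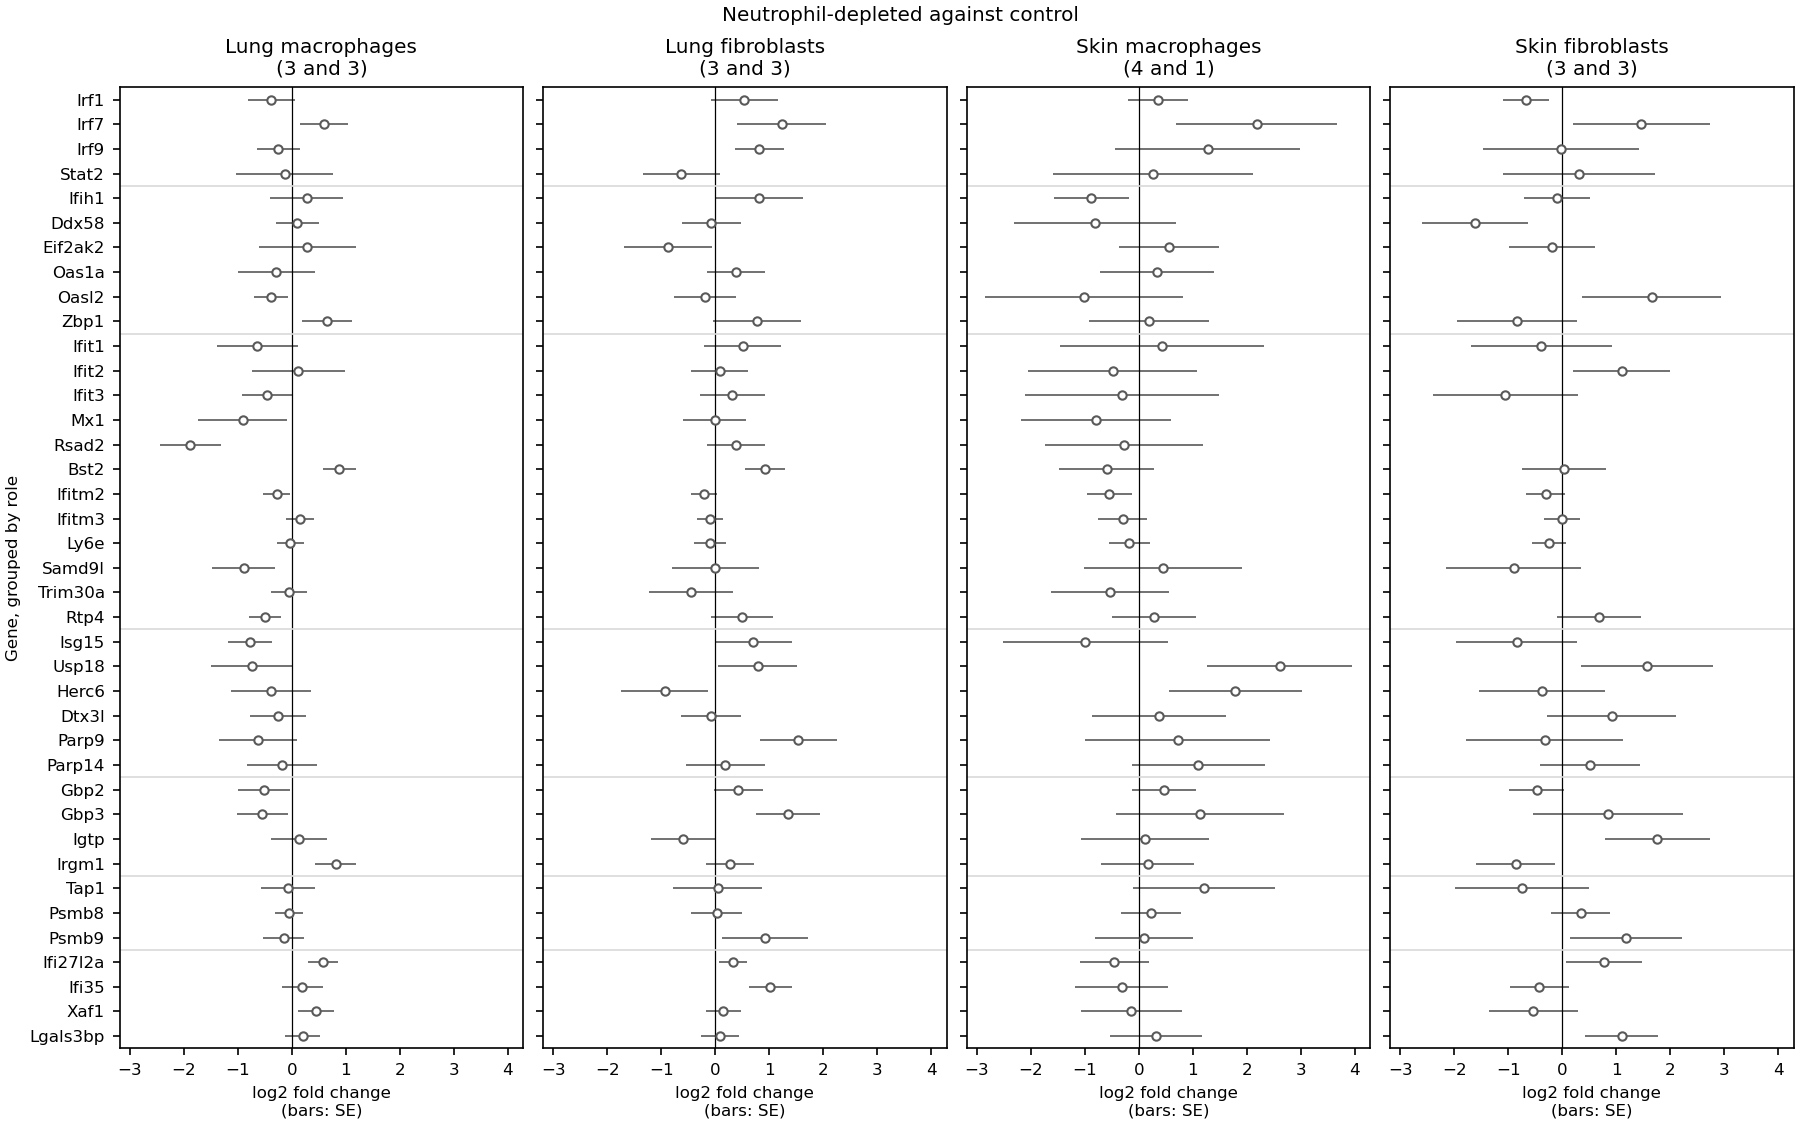
Points give the log2 fold change of depleted over control libraries for each gene, with bars of 1 standard error, in the 4 populations; no point is filled because none passed an adjusted p of 0.05. Rsad2 in lung macrophages stands lowest in that panel at -1.88, bars are wider in skin, and Oas1a, Mx1, Rsad2 and Trim30a are missing from skin fibroblasts because they fell below the filter on low values.

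Rsad2 had the lowest p of the members in lung macrophages. Its signal was 96.2, 34.5 and 92.0 in controls and 27.7, 21.7 and 8.83 in depleted libraries, means of 74.3 ± 34.5 and 19.4 ± 9.63 (SD, n = 3 each), which rest on 46.79 and 8 estimated reads. The groups did not overlap, and the log2 fold change of -1.88 ± 0.56 did not pass after adjustment (limma adjusted p = 0.175). Over the alternatives its adjusted p ranged from 0.0756, without depleted macrophages 1, to 0.685, without control macrophages 1. Bst2 went the other way, at 88.2, 109 and 98.0 in controls and 157, 183 and 209 in depleted libraries. Again the groups did not overlap, and the value of 0.88 ± 0.31 did not pass (limma adjusted p = 0.346). The next members by p were Irgm1 at 0.81, Ifi27l2a at 0.58 and Isg15 at -0.78 ± 0.41 (limma adjusted p = 0.583, 0.599 and 0.666). Depleted libraries lay above all controls for 2 members, Bst2 and Irgm1, and below all for 2, Oasl2 and Rsad2, where 6.21% and 6.02% of all genes did.

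Other cell types' markers moved with depletion in lung macrophages. The summed neutrophil markers, 10 of 13 in the table, were 0.758 to 1.61% of signal in controls and 0.150 to 0.185% in depleted libraries, and no library had more than 1 of the 10 at 0 reads. B and plasma cell markers were 0.0768 to 0.192% and 0.0215 to 0.0609%, and lung epithelial markers 0.199 to 0.861% and 0.910 to 2.07%. Of the plasmacytoid dendritic cell list, which without Bst2 had 4 genes in the table, the signal was 0.0133 to 0.0246% in controls and 0.0145 to 0.0222% in depleted libraries. The sum does not follow these cells alone, since lung fibroblasts had 0.0392 to 0.0546%. The highest of them, depleted fibroblasts 2, had Siglech, Ccr9 and Ly6d at 0 reads. Macrophage markers were 1.54 to 2.53% in controls and 3.05 to 3.42% in depleted libraries, and immediate-early genes of the dissociation response 0.320 to 0.378% and 0.229 to 0.287%. The part of these cells and genes in the values of Rsad2 and Bst2 was not tested.

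Lung fibroblasts had 1 gene called of 11867 (0.00843%) and 0 of 39 members. Their 5 lowest p values belonged to Ifi35 (1.02 ± 0.40), Bst2 (0.92 ± 0.37), Gbp3 (1.35 ± 0.60), Parp9 (1.54 ± 0.71) and Irf9 (0.81 ± 0.45), all with a limma adjusted p of 0.969. Of these, 4 had an unadjusted p below 0.05, compared with 5.06% of all genes. Bst2 was 79.1, 43.3 and 44.6 in control fibroblasts and 98.7, 111 and 98.4 in depleted ones. These groups did not overlap, as in the lung macrophages. Depleted fibroblasts were above all controls for 6 members, Bst2, Gbp3, Ifi27l2a, Ifit1, Parp9 and Zbp1, and below for 0, where 4.94% and 4.26% of all genes were. Some of these rest on few reads. Ifit1 had 2, 2 and 4 reads in controls and 2, 6 and 6 with depletion. Zbp1 had 1, 1 and 2 in controls and 3, 2 and 4 with depletion. For Ifit1 and Zbp1 the separation depends on the signal that 1 read was worth in each library. The members' median was 0.27, with 27 positive values, against -0.01 for all genes; without depleted fibroblasts 1 the members' median was 0.07. Lung epithelial markers moved too, at 0.0505 to 0.214% in controls and 0.193 to 0.554% in depleted fibroblasts, and their part was not tested.

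In skin fibroblasts 35 of the 39 members passed the filter on low values, and 0 were called, as were 0 of 11780 genes (0%). No member had an unadjusted p below 0.05, where 2.4% of all genes did. The 5 lowest p values belonged to the GTPase Igtp (1.76 ± 0.98), Ddx58 (-1.62 ± 0.98), Lgals3bp (1.10 ± 0.68), Irf1 (-0.66 ± 0.42) and Oasl2 (1.65 ± 1.28), all with a limma adjusted p of 0.955. Irf1 was the member for which all controls, at 51.9, 45.0 and 54.8, were above all depleted libraries, at 37.5, 26.5 and 31.1, as for 3.93% of all genes. Mx1 was the member with depleted libraries above, at 0.477, 29.6 and 1.90 against 0.172, 0.155 and 0.286, as for 4.5% of all genes. Mx1 fell below the filter on low values and was not among the 35 tested. Its controls held 2.04, 3.03 and 4.55 estimated reads, and the 29.6 came from depleted fibroblasts 4, a library rich in zeros. Standard errors had a median of 0.98, against 0.47 in lung macrophages.

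Skin macrophages gave the least certain contrast, 4 depleted libraries against control 3, whose spread was assumed to equal that of the other groups. Of 12536 genes 0 were called (0%), and 0 of 39 members. Usp18, the protease that removes ISG15 and damps type I interferon signalling, had the lowest p. It was 47.6, 73.9, 63.1 and 37.9 in the depleted libraries and 8.02 in control 3, a log2 value of 2.61 ± 1.34 (limma adjusted p = 0.979). All depleted libraries were above that control, but a single control has no spread of its own. Irf7 (2.18), Herc6 (1.79), Ifitm2 (-0.55) and Ifih1 (-0.88) followed. At an unadjusted p below 0.05 there were 5.5% of all genes and 0 members. With libraries 1 and 5 entered as control macrophages, as labelled, 985 of 12574 genes were called (7.83%), among them 2 members higher with depletion, Psmb8 (2.49, limma adjusted p = 0.0296) and Oas1a (4.25, limma adjusted p = 0.0415). Those are members at the fibroblast level in libraries 1 and 5, at 37.6 and 30.6 for Psmb8 and 0 reads for Oas1a, and the members' median was then 0.85. Control 3, at 367 for Psmb8 and 58.5 for Oas1a, lay inside the range of the depleted libraries for both.

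The difference between the effects of depletion in macrophages and in fibroblasts passed for 0 of 39 members in lung (0.0169% of all genes) and for 0 in skin (0%). The lowest p values in lung belonged to Gbp3 (-1.89), Parp9 (-2.17) and Rsad2 (-2.26), lower in macrophages relative to fibroblasts, and none had a limma adjusted p under 0.849. In skin, the 5 lowest p values included Ifi27l2a at -1.22 and Trim30a at -1.89, which took the opposite sign with libraries 1 and 5 as labelled, at 0.52 and 1.62. Of the pathway genes outside the members none was called for depletion in any population. Ifitm1, a paralog of Ifitm3, came nearest, at -1.16 in lung macrophages (limma adjusted p = 0.0798). Tlr7 was next there at -1.39, and the receptor chain Ifnar1 had -1.27 (limma adjusted p = 0.184 and 0.411).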

How the data were processed

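Sorted cells were profiled with the NuGEN Ovation Single Cell RNA-Seq System and single-end reads, per the labels' protocols. CASAVA 1.8, cutadapt 1.7.1, RSEM 1.7.1, limma 3.46 and mm10 are named in the submitters' processing notes, with no role or order. The authors deposited 1 table of normalised signal per organ. Within each library the signal equals estimated reads plus 0.5 times a constant, so the lowest value stands for 0 reads; these came out whole, within 0.01, for 70.0 to 82.2% of a lung library's genes and for 27.4 to 58.0% in skin, so count models were not used as the main test. Tables were normalised separately and tested separately.

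Groups come from the genotype, cell type and title labels; the title of skin control macrophages 5 and its cell type label disagree. Symbols were matched for 11829 lung and 12641 skin genes. Tests were two-sided, from the lmFit and eBayes functions of limma 3.58.1 under R 4.3.3 with the trend option on. Values entered as log2(signal + pseudocount), where the pseudocount, 1.04 in lung and 1.001 in skin, is 1 ppm of the mean library total. Genes at 1 ppm or more in at least 3 libraries were tested, with Benjamini-Hochberg adjustment over all genes tested. In lung this filter removed no gene, since 11867 were tested with and without it. Lung members with almost no reads, such as Oas1a and Rsad2 in fibroblasts, were therefore tested too. Fits were also run on simulated reads with changes placed only in genes of above-median signal, which does not bear on members with few reads. The members and lists were chosen with earlier results of these data known. Named per comparison were called members with the lowest p, up to 10 per direction, or the 5 with the lowest p where fewer than 5 were called; members with values in every library were the highest of each role and the 3 with the lowest p per direction and organ. Names outside this rule (Bst2, Dtx3l, Ly6e in skin and others) were chosen after their values were seen. A pathway gene under this rule is not reported here. Whether replicate numbers pair the samples is not known, and no pairing entered the main fits. Alternatives covered pseudocount, filter, scaling, variance model, library weights, voom on estimated reads, threshold, replicate block, libraries 1 and 5 as labelled, and leaving out each library.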

Additional observations from a re-analysis of the deposited data

Results flagged for a closer look

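In the depleted skin macrophages, 3 of the 39 genes had 1 library far from the other 3 by Dixon's criterion on the log2(signal + pseudocount) scale, whose critical value is 0.829 for 4 samples, and in each case it was replicate 1. Ifit1 was 74.5 there and 3.89, 5.86 and 5.56 in the others. Isg15 was 0.393 there and 14.9, 17.0 and 14.0 in the others. Ifi35 was 15.0 there and 60.3, 64.5 and 61.1 in the others. Chance marks about 1 in 20 groups in this way, and groups of 3 were not examined. The same library had 22.2% of all genes at 0 reads, and its part in these values was not tested.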

How the results depend on the processing

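Fold changes were recomputed under the alternatives for the members named by rule in each comparison and for all members called between the cell types. Of 1455 such values, 1370 kept their direction and side of the threshold, 83 no longer passed and 2 reversed. The 1370 include depletion values that passed in neither fit. All 83 lost calls are from the cell type comparisons, so the 1370 says little about how firm those calls are. Other members are given by the counts. The reversed ones are the differences of depletion effects in skin for Ifi27l2a (0.52) and Trim30a (1.62) with control macrophages 1 and 5 as labelled. Of 352 counts, 337 stayed within 1.5 times. Most main counts were 0, and a 0 that stayed 0 is among the 337, so that figure says little about counts above 0. Counts of higher members that moved were 11 in lung with depleted libraries only, 5 in skin with libraries 1 and 5 as labelled, 2 in skin with control libraries only, and 2 for depletion in skin macrophages as labelled. Counts of lower members that moved were 2 in lung with quantile normalisation and 1 with voom; in skin 5 with library weights, 5 without the 3 libraries rich in zeros, 0 as labelled and 0 with control libraries only. Leaving out 1 library gave 18 to 19 higher and 0 to 1 lower in lung, and 9 to 15 higher and 1 to 2 lower in skin; the cause was not tested.

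Deviations from group means correlated between same-numbered libraries at -0.0458 to 0.0259 in lung and -0.0513 to 0.143 in skin. Skin had 2 such pairs per contrast. Differently numbered libraries reached 0.0642 in lung and 0.168 in skin. In depleted skin, macrophages with fibroblasts reached 0.143 for same and 0.0417 for different numbers. Such values cannot decide whether same-numbered libraries share an animal, because few noisy libraries enter each group mean. With a replicate block, 3 members were lower in skin macrophages and 2 had a lower difference of depletion effects in skin (Lgals3bp and Igtp), where 23.7% and 2.68% of all genes were called. For all genes, the 59 calls for depletion in lung macrophages became 38 with the 10 times larger pseudocount, 27 with quantile normalisation, 18 in the 4-group model, 0 without a variance trend, 11 without control 2 and 12 without control 3. The 1 call in lung fibroblasts ranged from 0 to 7, the latter without depleted fibroblasts 2. The 0 calls in skin fibroblasts became 84 with the replicate block and 16 without depleted fibroblasts 2. The 0 in skin macrophages became 985 as labelled, 105 with library weights, 11 without the 3 libraries rich in zeros, 3 with no pseudocount and 1 without depleted macrophages 3. The difference of depletion effects had 2 calls in lung (0 to 12, the latter with the 10 times larger pseudocount) and 0 in skin (336 with the replicate block, 3 with library weights, 1 with no pseudocount). No value was possible for depletion in skin macrophages without control 3. Scaling moved the median of all genes from -0.09 to -0.16 in lung and from -0.13 to 0.02 in skin. Lung depth limits members with few reads.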
